A study of Homo sapiens with 4 samples.

Results

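The interleukin genes outside the IL17 family were taken as every gene probe whose symbol starts with IL and a number and not with IL17. The symbol rule keeps IL25, which is also known as IL17E and belongs to the IL17 family by sequence. The genes numbered 73 of the 785 gene probes: 35 ligands, 32 receptor chains, and 6 inhibitors, which are antagonists, binding proteins or decoy receptors. Total RNA was read on a NanoString panel, which counts colour-coded probes hybridised to their transcripts. The samples were HAP1 cells, an established near-haploid human line derived from a chronic myeloid leukaemia that grows as an adherent culture. They comprised 2 wild-type lines, numbered 1 and 7 and sold as batches of the same parental stock, and 2 MATR3 knockout lines, numbered 1 and 5, each a separate clone. No treatment was named, all lines were grown in the same medium, and each line was measured once. The p-values rest on 2 lines per genotype, with each gene's variance drawn towards that of genes of similar level. Differences between lines and measurement noise cannot be told apart in them. The genotypes are taken from the labels, since MATR3 itself, which encodes the nuclear RNA- and DNA-binding protein matrin 3, was not analysed here.

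Interleukins are secreted proteins through which leukocytes, and many epithelial and stromal cells, signal to each other. Most act through receptors built from several chains, of which a private chain gives specificity and a shared chain, such as IL6ST, IL2RG, IL10RB or IL1RAP, serves several ligands. Class I and class II cytokine receptors signal through JAK kinases and STAT factors, whereas receptors of the IL1 family carry an intracellular TIR domain and signal through MYD88 and IRAK kinases. A cell generally needs all chains of the matching receptor to respond to an interleukin by itself, although a soluble IL6R, or IL15RA on a neighbouring cell, can stand in for the chain a cell lacks.

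Total gene counts were 448610 to 571767 per line. A gene was called above background in a line when its normalised count exceeded the mean plus 2 SD of the negative control probes of that line. This limit was 25.7 normalised counts in wild-type line 1, 21.1 in wild-type line 7, 19.5 in knockout line 1 and 21.7 in knockout line 5. Of 17 measured leukocyte markers, 12 lay below the limit in every line, among them PTPRC, the pan-leukocyte phosphatase, at 6.68 to 9.39. Separate panel probes for isoforms of PTPRC were not among the 17. Of these, CD45RA was at 38.5 to 50.1, above the limit in all 4 lines, whereas CD45RB and CD45R0 were above it in 0 lines. The probe FCGR3A/B, also outside the 17, was above the limit in all lines but knockout line 5. CD14 and CD68, markers of myeloid cells, were above it in all 4 lines, at 25.6 to 45.4. The summed level of the 17 markers was 254 and 318 for the wild type and 250.4 and 193 for the knockout. Both knockout sums lay below both wild-type sums, with knockout line 1 close to wild-type line 1. As most of these markers were below the limit in every line, much of each sum was background signal. Of the 4 markers tested, all with a mean under 50, 0 were called and all 4 had a log2 fold change below 0. Of all tested genes with a mean under 50, 83.2% were below 0. As the RNA was bulk, fewer expressing cells and less RNA per cell cannot be told apart in any value below.

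Most interleukin genes were not above background in all lines, and those that were belonged mainly to the receptor chains. Above the limit in all 4 lines were 11 of the 73 members (15.1%), against 49.6% of all 785 gene probes. These were 8 of 32 receptor chains (25.0%), 3 of 35 ligands (8.57%) and 0 of 6 inhibitors. IL1F10 was counted among these ligands, although it is also described as an antagonist. A further 29 members were above the limit in 1 to 3 lines, and 33 (45.2%) in 0 lines. The receptor chains led under each limit tried, but the size of the lead depended on the limit. With the mean plus 3 SD, 6 of 32 receptor chains and 2 of 35 ligands were above it in all lines. With the highest negative control these were 8 and 2. The lead was smallest with the mean of the negative controls as the limit, at 23 of 32 receptor chains and 22 of 35 ligands. Probes bind their targets with different efficiency, so each gene is set here against the background of its line and not against other genes.

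**Figure D1:**
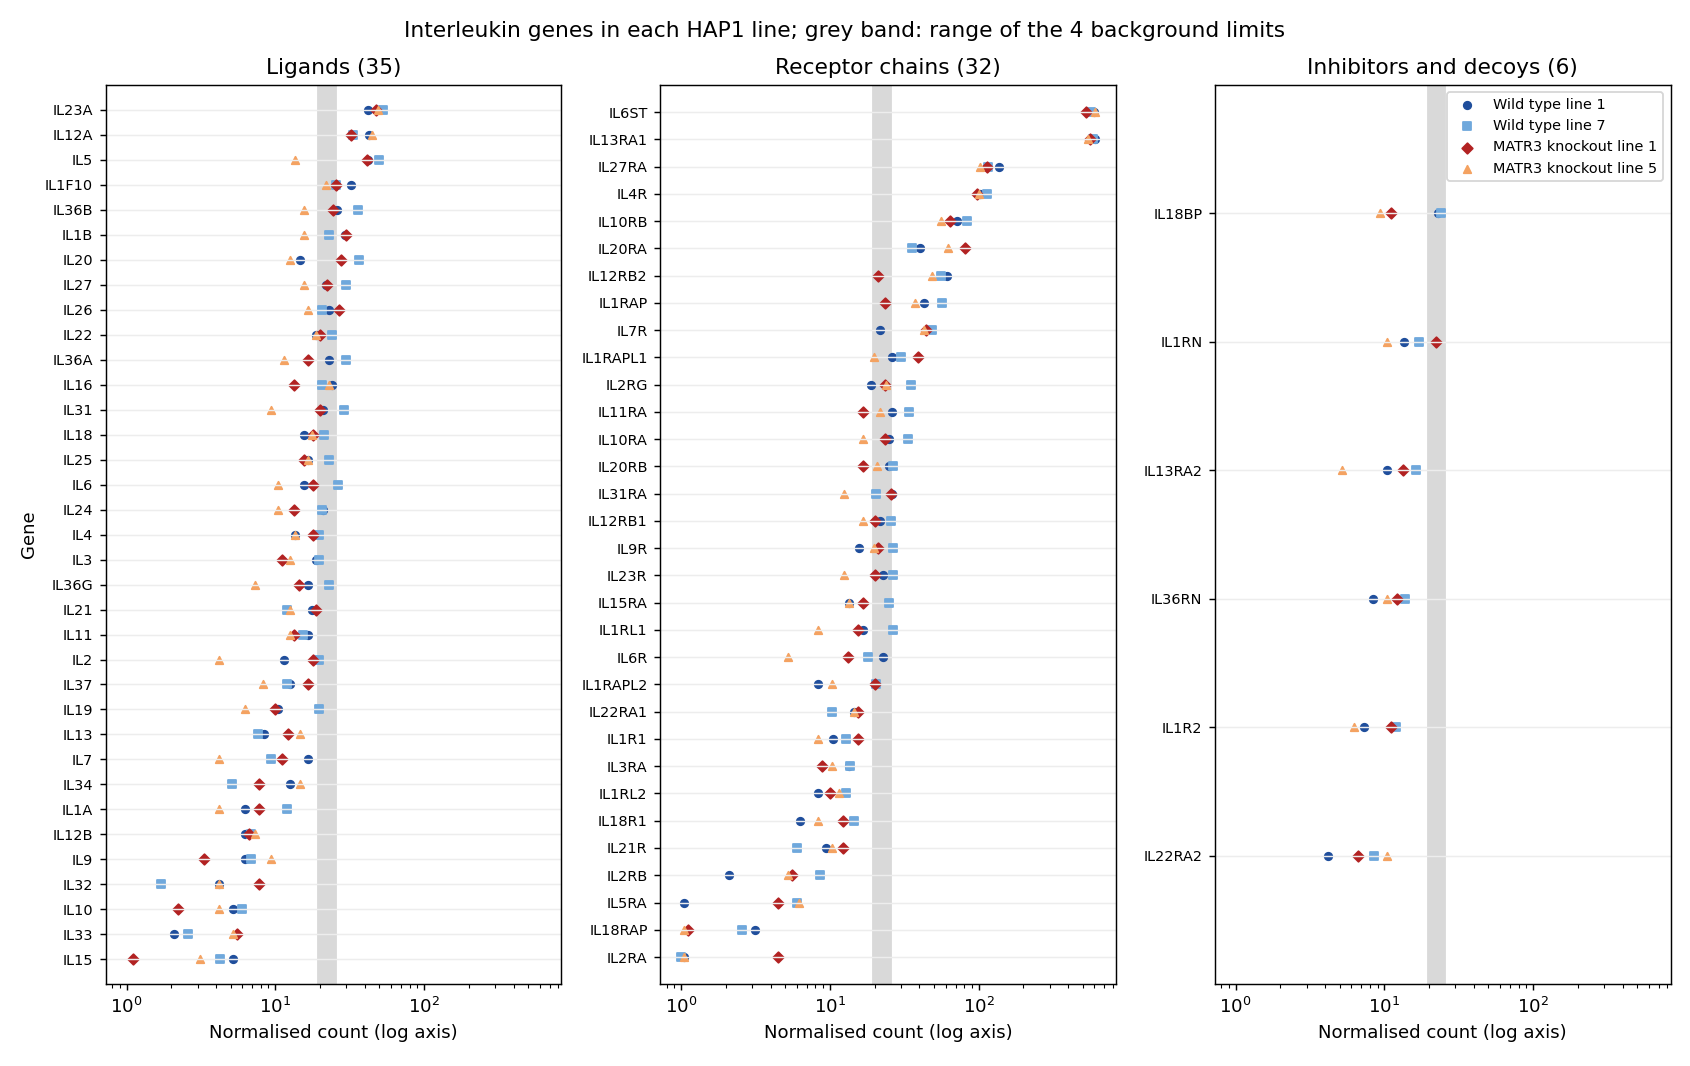
Normalised counts (log axis) of all 73 interleukin genes in the 4 HAP1 lines, ordered by mean within ligands, receptor chains and inhibitors; the grey band spans the 4 background limits, from 19.5 to 25.7. IL6ST and IL13RA1 stand far to the right of the band, whereas most ligands and all 6 inhibitors lie within it or to its left.

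The order of the roles was the same in every line, although the number of detected genes differed widely between lines. In wild-type line 1, 6 ligands (17.1%) and 11 receptor chains (34.4%) were above the limit. In wild-type line 7 these were 15 ligands (42.9%) and 19 receptor chains (59.4%). In knockout line 1 they were 11 ligands (31.4%) and 17 receptor chains (53.1%), and in knockout line 5 they were 4 ligands (11.4%) and 11 receptor chains (34.4%). The wild-type and knockout lines overlapped in both roles, so detection did not separate the genotypes. The share of all gene probes above the limit moved with these values, at 57.1% in wild-type line 1, 71.1% in wild-type line 7, 65.6% in knockout line 1 and 52.1% in knockout line 5. Wild-type line 7 was also the line with the highest total count, 571767, but knockout line 1, second in detected members, had the lowest, 448610. These 2 lines had the lowest background limits, 21.1 and 19.5. The parts of total count and of the limit in the counts of detected members were not tested. Of the 29 members above the limit in some lines only, 24 were above it in wild-type line 7 and 18 in knockout line 1, against 6 in wild-type line 1 and 4 in knockout line 5.

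**Figure D2:**
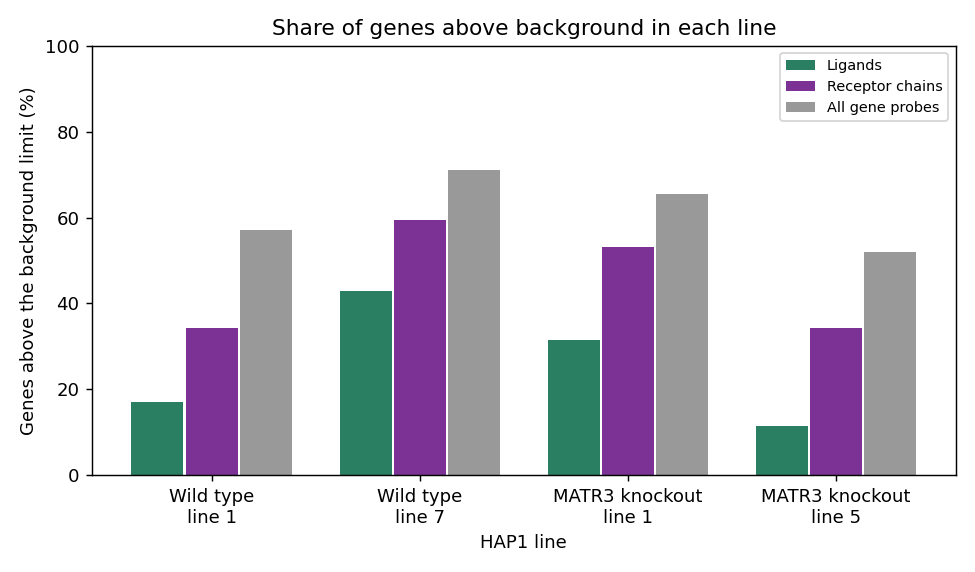
Percentage of the 35 ligands, the 32 receptor chains and all 785 gene probes above the background limit in each HAP1 line. Ligands have the lowest share in every line, from 11.4% to 42.9%, and all 3 bars are lowest in knockout line 5, where receptor chains equal wild-type line 1 at 34.4%.

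Among class I receptor chains, decoys left out here and below, 5 of 17 were above the limit in all lines: IL6ST, IL13RA1, IL27RA, IL4R and IL12RB2. IL6ST, which encodes gp130, the signalling chain shared by the IL6 and IL27 receptors, was at 597 (line 1) and 566 (line 7) normalised counts in the wild type and at 529 (line 1) and 609 (line 5) in the knockout; later pairs keep this order. These values were 23.2 to 28.1 times the limit of their line, and the genotypes overlapped. IL13RA1, a chain of the receptor that binds both IL4 and IL13, was at 605 and 584 in the wild type and at 559 and 542 in the knockout, or 23.6 to 28.6 times the limit. Both knockout values lay below both wild-type values. IL27RA, the private chain for IL27, was at 138 and 116 in the wild type and at 115 and 102 in the knockout, and IL4R, the chain that binds IL4, was at 102 and 115 against 97.9 and 101. In both genes the knockout values lay below the lower wild-type value. All 5 class I chains except IL12RB2 were at least 3.98 times the limit of every line.

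Class II chains were represented by IL10RB and IL20RA, 2 of the 5 of that class on the panel. IL10RB, the chain shared by the receptors for IL10, IL22 and IL26, was at 72.0 and 83.0 in the wild type and at 64.5 and 56.2 in the knockout, with both knockout lines lower. IL20RA, a chain of the receptors for IL19, IL20, IL24 and IL26, was at 40.7 and 35.9 in the wild type and at 81.2 and 62.4 in the knockout, with both knockout lines higher. In the IL1 receptor family 1 of 8 chains was above the limit in all lines. This was IL1RAP, the accessory chain shared by the receptors for IL1, IL33 and IL36, at 42.8 and 56.5 in the wild type and 23.4 and 37.5 in the knockout. Of the alpha chains with sushi domains, IL2RA and IL15RA, 0 of 2 were above it in all lines.

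Set against the composition of known receptors, few complexes had every chain above background. Of the 24 receptor complexes listed, 3 had all their chains above the limit in all 4 lines. They were IL4R with IL13RA1, the type II receptor for IL4 and IL13, IL27RA with IL6ST, the IL27 receptor, and IL20RA with IL10RB, the IL26 receptor. A further 10 complexes had only part of their chains above it in all lines. The other 11 had no measured chain above it in all 4 lines, though some of these chains passed in fewer lines. One of the 11 is the IL31 receptor, of which only IL31RA was measured here. The list left out the IL35 receptor, described as IL12RB2 with IL6ST. Both of these chains were above the limit in all 4 lines. IL6ST was detected without IL6R, the ligand-binding chain for IL6, which was at 5.20 to 22.95 and above the limit in 0 lines. IL1RAP was detected without IL1R1, at 8.33 to 15.6, without IL1RL1, which passed the limit only in wild-type line 7 at 26.5, and without IL1RL2, at 8.35 to 12.8. IL10RA, the private IL10 chain, was above the limit in wild-type line 7 and knockout line 1 only, at 33.4 and 23.4.

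IL2RG, the common gamma chain shared by the receptors for IL2, IL4, IL7, IL9, IL15 and IL21, was above the limit in 3 lines. It was at 18.8 and 35.1 in the wild type and at 23.4 and 23.9 in the knockout. IL7R, its partner for IL7, also passed in 3 lines, at 48.8 in wild-type line 7 and 44.5 and 42.7 in the knockout, but was at 21.9 in wild-type line 1. The 2 wild-type lines thus differed more from each other than the knockout lines did in both genes. IL1RAPL1, a member of the IL1 receptor family known from neurons, and IL11RA, the IL11 chain, were the other receptor chains above the limit in 3 lines. The lowest receptor chains were IL2RA, at 1.00 to 4.45, and IL18RAP, at 1.04 to 3.13, and of the 32 receptor chains 11 were above the limit in 0 lines.

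The 3 ligands above the limit in all lines were IL23A, IL12A and IL1F10. IL23A, the p19 subunit of IL23, was at 41.7 and 53.1 in the wild type and at 47.9 and 48.9 in the knockout. IL12A, the p35 subunit shared by IL12 and IL35, was at 42.8 and 33.4 against 32.3 and 44.8. In both genes the genotypes overlapped. Neither partner subunit passed the limit in any line: IL12B, which pairs with both IL23A and IL12A, was at 6.26 to 7.28, and EBI3, which pairs with IL12A in IL35, at 2.08 to 5.22. Of the 4 known heterodimeric ligands of these chains, 0 had both subunits above background in all lines. IL1F10, also called IL38, is a member of the IL1 family that is also described as an antagonist. It was at 32.3 and 25.7 in the wild type and at 25.6 and 21.9 in the knockout, or 1.01 to 1.31 times the limit of each line.

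IL5, the eosinophil growth factor, was above the limit in all lines but knockout line 5, at 41.7 and 49.6 in the wild type, 41.2 in knockout line 1 and 13.5 in knockout line 5. IL36B and IL1B, both ligands of IL1 family receptors, had the same pattern of detection, at 15.6 in knockout line 5. The other ligands were above the limit in 2 lines (IL20, IL22, IL27 and IL31), in 1 line (IL6, IL16, IL18, IL25, IL26, IL36A and IL36G) or in 0 lines (18 ligands). IL6, the acute-phase cytokine, was above it only in wild-type line 7, at 26.5. Ligands above it in 0 lines included IL2, IL4, IL10, IL13, IL15 and IL33. IL33, the alarmin of epithelial cells, stayed at 2.09 to 5.56 and IL15 at 1.11 to 5.22. Of the inhibitors, IL1RN, the IL1 receptor antagonist, was above it only in knockout line 1, at 22.3, and IL18BP, the IL18 binding protein, only in wild-type line 7, at 23.96, while IL13RA2, IL1R2, IL22RA2 and IL36RN were above it in 0 lines. The 33 members above the limit in 0 lines spanned 1.00 to 22.95 normalised counts.

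The members also differed in the sequence before their start sites. RefSeq promoter windows on GRCh38.p14, cut to the 250 bases before each start and averaged where a gene had several, were matched for 59 of the 73 members. The median number of CG dinucleotides was 20.5 in the 11 members above background in all lines, 4 in the 20 matched members above it in some lines and 3 in the 28 matched members above it in 0 lines. All 8 receptor chains detected in all lines had 17 to 35. A high number was not limited to detected members. Of the 28 matched members above background in 0 lines, 5 had at least 10, among them IL6R with 22 and IL13 with 18. Of the ligands detected in all lines, IL12A had 18, but IL23A had 3 and IL1F10 had 2.5. The same gap was seen over the whole panel, with a median of 20 for genes above the limit in all lines and 3 for genes above it in 0 lines, and the median over all 27305 genes of the promoter table was 11. The motif TATAAA, searched on both strands, was in the windows of 3 of the 11 detected members (27.3%) and of 8 of the 28 undetected ones (28.6%), against 13.05% of all genes in the table. On the whole panel it was in 13.4% of the genes above the limit in all lines and in 26.1% of those above it in 0 lines.

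**Figure D3:**
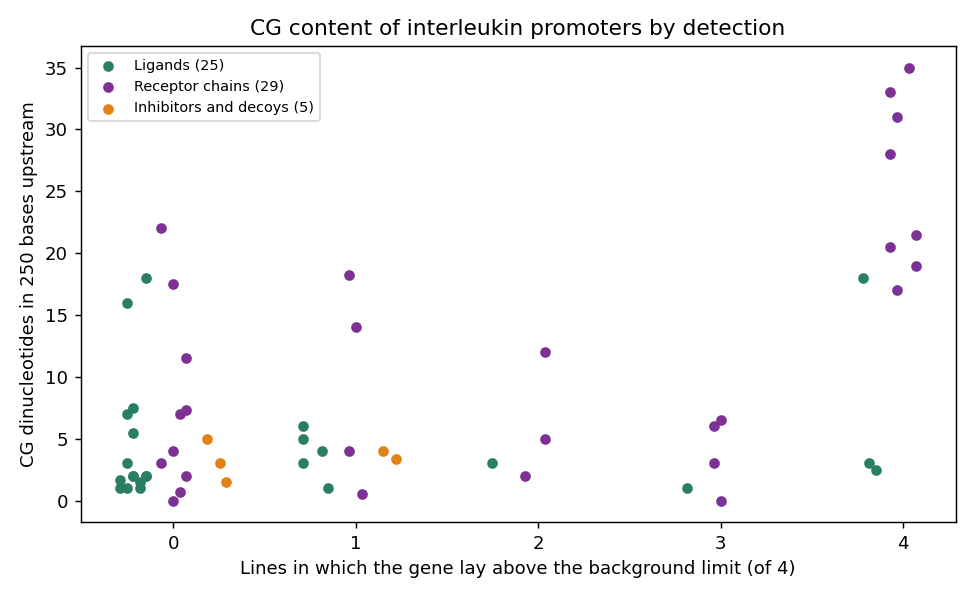
CG dinucleotides in the 250 bases upstream of the start site, for the 59 matched interleukin genes, by the number of lines in which the gene lay above the background limit; points are genes, spread sideways for visibility. At 4 lines all 8 receptor chains have 17 or more, whereas most genes at 0 lines have fewer than 10.

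To show what the CG-rich and the CG-poor windows look like, those of the detected receptor chains IL6ST, IL13RA1 and IL20RA are printed with that of IL2RA, the member with the lowest mean. IL20RA has 2 windows in the table, and the CG-richer one is shown. Each runs 5′ to 3′ on the strand of its gene, with the CG dinucleotides in capitals. On GRCh38.p14 the windows are chr5:55994964-55995213 on the minus strand with 31 CG dinucleotides, chrX:118727356-118727605 on the plus strand with 28, chr6:137044275-137044524 on the minus strand with 28, and chr10:6062368-6062617 on the minus strand with 3.
IL6ST: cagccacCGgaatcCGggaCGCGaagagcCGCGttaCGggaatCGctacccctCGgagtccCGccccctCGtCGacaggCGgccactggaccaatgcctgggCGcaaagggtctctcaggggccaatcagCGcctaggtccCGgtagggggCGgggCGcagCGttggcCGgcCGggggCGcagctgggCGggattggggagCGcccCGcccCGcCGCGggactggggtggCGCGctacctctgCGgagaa
IL13RA1: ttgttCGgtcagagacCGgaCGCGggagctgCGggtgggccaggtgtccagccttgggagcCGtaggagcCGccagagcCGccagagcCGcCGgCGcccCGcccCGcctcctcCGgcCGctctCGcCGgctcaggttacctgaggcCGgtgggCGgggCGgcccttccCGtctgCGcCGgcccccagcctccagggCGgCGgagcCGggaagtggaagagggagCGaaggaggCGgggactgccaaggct
IL20RA: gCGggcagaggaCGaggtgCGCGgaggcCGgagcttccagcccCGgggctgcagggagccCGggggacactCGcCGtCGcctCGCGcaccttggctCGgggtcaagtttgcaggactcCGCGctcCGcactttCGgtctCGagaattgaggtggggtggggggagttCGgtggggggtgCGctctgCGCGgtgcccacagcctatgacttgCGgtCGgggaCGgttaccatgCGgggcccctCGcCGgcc
IL2RA: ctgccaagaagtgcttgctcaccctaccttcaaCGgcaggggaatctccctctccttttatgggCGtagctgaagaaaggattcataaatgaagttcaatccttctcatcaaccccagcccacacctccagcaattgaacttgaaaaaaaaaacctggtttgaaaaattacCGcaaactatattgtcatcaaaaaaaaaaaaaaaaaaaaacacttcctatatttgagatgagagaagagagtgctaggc

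The study compared MATR3 knockout with wild-type cells, and 0 of the tested interleukin genes passed the threshold. Of the 73 members, 30 had a mean of at least 20 normalised counts over the 4 lines and were tested, 12 of them ligands and 18 receptor chains. By limma, with Benjamini-Hochberg adjustment across the 514 genes tested and a threshold of 0.05, 0 of 30 were called, where 8.17% of all tested genes were called, 6.23% as higher and 1.95% as lower in the knockout. That split of 32 higher and 10 lower genes was 53 and 8 under scaling on reference genes without TBP and 40 and 29 under cyclic loess. At an unadjusted p under 0.05 there were 2, IL20RA and IL12RB2, and edgeR on the recovered counts also called 0. The exact permutation test of 2 lines against 2 cannot go below p = 0.333.

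**Figure D4:**
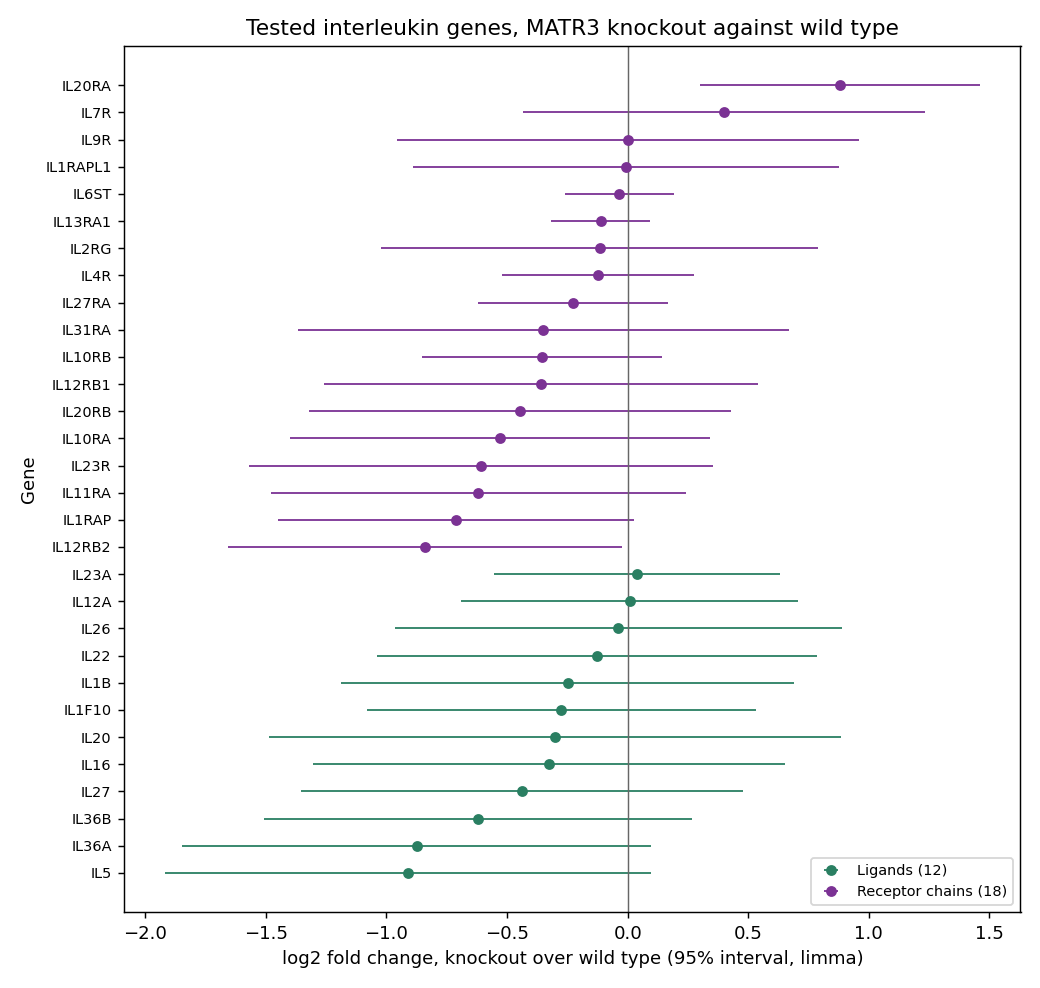
Log2 fold change of the 30 tested interleukin genes, knockout over wild type, on the log2(value + 1) scale with 95% intervals from limma (2 lines per group). IL20RA lies farthest to the right at 0.88, IL5 farthest to the left at -0.91, and the narrowest intervals are those of IL13RA1 and IL6ST.

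IL20RA had the lowest adjusted p of all members. Its recovered counts were 39 and 42 in the wild type and 73 and 60 in the knockout, and its normalised count was 38.3 ± 3.36 (SD, n = 2) in the wild type and 71.8 ± 13.3 (SD, n = 2) in the knockout. The log2 fold change, 0.88 ± 0.26 (SE), had a limma adjusted p of 0.072, with a 95% interval of 1.23-fold to 2.75-fold for the ratio before adjustment. It was the only tested member whose knockout lines both lay above both wild-type lines, which was so for 22.4% of all tested genes. The value was above 0 in all 14 alternatives, from 0.69 to 1.07, and it passed the threshold in 3 of them: with scaling on reference genes without TBP (adjusted p = 0.0308), with cyclic loess (0.00518) and with only genes of a mean of at least 50 tested (0.0418). Without any single line its adjusted p was 0.0574 to 0.174. In gene order its nearest tested panel neighbours with a mean of at least 50 were MARCKS and MAP3K5 on one side and TAB2 and SOD2 on the other. Their log2 fold changes were 1.24, 0.65, 1.06 and 0.81, and in all of them both knockout lines lay above both wild-type lines. MARCKS, TAB2 and SOD2 were called and MAP3K5 was not (limma adjusted p = 0.154). This order passes over genes with lower means and gives no distances, so these genes may lie far from IL20RA. IL22RA2, also on chromosome 6, was below background in every line and was not tested.

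The 3 other class II chains that were tested, IL10RB, IL10RA and IL20RB, had lower means in the knockout, and 0 of them was called. IL10RB averaged 77.5 ± 7.78 (SD, n = 2) for the wild type against 60.4 ± 5.90 (SD, n = 2) for the knockout. Its log2 difference was -0.35 ± 0.23 (SE), with a limma adjusted p of 0.424. IL10RA was at -0.53 and IL20RB, which pairs with IL20RA in the type I receptor for IL20, at -0.45, with adjusted p of 0.46 and 0.523. IL20RB was above the limit only in wild-type line 7, so that its ratio rests on values near background.

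For the receptor chains far above background the intervals were narrow. IL6ST differed by -0.03 ± 0.10 on the log2 scale (SE), with a limma adjusted p of 0.875, and its interval ran from 0.835-fold to 1.14-fold. IL13RA1 was at -0.11 ± 0.09 (SE; adjusted p = 0.494), with an interval from 0.803-fold to 1.07-fold. IL4R, at -0.12 with an interval from 0.697-fold to 1.21-fold (adjusted p = 0.695), and IL27RA, at -0.23 with an interval from 0.651-fold to 1.12-fold (adjusted p = 0.478), were less precise. The intervals of all 4 chains thus leave out a 2-fold change in either direction. Over the 30 tested members 10 intervals did so, while 20 reached past 2-fold on at least 1 side, so that these data do not bound the difference of those genes within 2-fold.

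IL12RB2 and IL1RAP had the lowest values in knockout line 1. IL12RB2, the signalling chain of the IL12 receptor, was at 61.6 and 55.6 in the wild type, 21.1 in knockout line 1 and 48.9 in knockout line 5. It differed by -0.84 ± 0.37 on the log2 scale (SE), with a limma adjusted p of 0.238. Without knockout line 5 it was -1.43 and passed the threshold (adjusted p = 0.0125), whereas without knockout line 1 it was -0.25 with an adjusted p of 0.629, so its size rested on knockout line 1. IL1RAP was at -0.71 ± 0.33 (SE; adjusted p = 0.272), with knockout line 1 lower than knockout line 5. IL12RB1, which pairs with IL12RB2 for IL12 and with IL23R for IL23, was at -0.36 and IL23R at -0.61, with adjusted p of 0.61 and 0.46.

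Among the ligands the lowest values were those of IL5 and IL36A. IL5 differed by -0.91 ± 0.46 on the log2 scale (SE), with a limma adjusted p of 0.306, and rested on knockout line 5: without knockout line 1 it was -1.68 and passed (adjusted p = 0.00219). IL36A, at 22.95 and 29.95 in the wild type and 16.7 and 11.5 in the knockout, was at -0.88 ± 0.44 (SE; adjusted p = 0.306) and passed only without knockout line 1, at -1.13 (adjusted p = 0.0477). Both knockout values of IL36A lay below background. IL23A and IL12A were at 0.04 ± 0.27 and 0.01 ± 0.32 (SE; adjusted p = 0.945 and 0.989), with intervals from 0.681-fold to 1.55-fold and from 0.619-fold to 1.63-fold. IL1F10 was at -0.27 ± 0.37 (SE; adjusted p = 0.657).

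Across the 30 tested members 25 had a log2 fold change below 0, with a median of -0.29, against a median of -0.04 over all 514 tested genes. The median was -0.29 for ligands and for receptor chains alike, with 10 of 12 ligands and 15 of 18 receptor chains below 0. Both knockout lines lay below both wild-type lines in 15 of 30 (50%), against 30.7% of all tested genes, and in 1 of 30 they lay above. The level of the genes moved with this pattern. The 173 tested genes with a mean under 50, which included 24 of the 30 members, had a median of -0.43 and were below 0 in 83.2%, while the other 341 genes had a median of 0.03. The summed leukocyte markers, most of them below background, were lower in the knockout as well. Of the 30 tested members, 11 were above background in all lines. The mean of the negative controls, multiplied by the factor of each line, was 8.87 and 8.56 in the wild type. It was 8.48 and 7.93 in the knockout. The parts of gene level, of background and of the markers in the members' median were not tested. Without knockout line 5 that median was -0.14. With cyclic loess, which removes differences between lines that follow the level, the median of the members was 0.06, that of the ligands 0.16 and that of the receptor chains -0.10. The 6 members with a mean of at least 50 had a median of -0.12.

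The lines of 1 genotype differed from each other about as much as the genotypes did. Over the tested members the median absolute log2 difference was 0.32 for wild-type line 1 against 7, 0.42 for knockout line 1 against 5, and 0.34 for the means of the genotypes. By line, the median difference of a knockout line from a wild-type line was -0.09 for knockout line 1 against wild-type line 1, -0.29 for knockout line 5 against wild-type line 1, -0.29 for knockout line 1 against wild-type line 7 and -0.47 for knockout line 5 against wild-type line 7. These comparisons share lines.

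The 43 members below the filter, which included all 6 inhibitors, had means of 1.88 to 19.8 and were not tested. Their groups overlapped in 26, both knockout values were lower in 14 and higher in 3. Over all 271 panel genes below the filter both were lower in 38% and higher in 5.17%. The 3 were IL13, at 8.35 and 7.70 against 12.2 and 14.6, IL33, and IL21R, a chain for IL21, at 9.39 and 5.99 against 12.2 and 10.4, each below background in every line. IL18BP, at 22.95 and 23.96 in the wild type and 11.1 and 9.37 in the knockout, was among the 14. With no filter 0 of the 73 members passed the threshold.

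Of 35 listed signalling genes downstream of these receptors 24 were measured and 21 tested. Above the limit in all lines were 19 of the 24, and 2, JAK3 and SOCS3, were above it in 0 lines. Of the tested genes 2 were called higher and 0 lower in the knockout, a share near the 8.17% of all tested genes, and the median log2 fold change was 0.01, with 11 above and 10 below 0. TAB2, which followed IL20RA in the gene order above, is an adaptor between the IL1 receptor pathway and the kinase MAP3K7. It was at 357 and 364 in the wild type and at 693 and 816 in the knockout. That is 1.06 ± 0.11 on the log2 scale (SE) with a limma adjusted p of 6.09e-05. SIGIRR, an inhibitory member of the IL1 receptor family without an IL symbol, was at 781 and 695 in the wild type and 1034 and 1012 in the knockout, which is 0.47 ± 0.09 on the log2 scale (SE) with an adjusted p of 0.00724. In both genes the 2 knockout lines lay above both wild-type lines. Of the 14 alternatives each lost its call under 1, limma without the trend, where the adjusted p was 0.0774 for TAB2 and 0.196 for SIGIRR.

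Of the kinases and factors that serve the detected class I and II receptors, JAK1, JAK2, TYK2, STAT3 and STAT6 had log2 fold changes from -0.34 to 0.17 and 0 of them was called. IRAK4, the first kinase of the IL1 receptor pathway, was at 0.54 and IRAK3, its inhibitor, at -1.25, with limma adjusted p of 0.0746 and 0.102. The IRAK3 values in the knockout, 13.4 and 12.5, lay below background. Of the 10 measured cytokines and chains of the same families without an IL symbol, 2 were tested, CSF1 and CSF2RA, and 0 called. Of 12 measured genes for the processing of interleukin precursors, 5 were tested and 0 called, and CASP1, the protease that matures IL1B and IL18, was below background in every line at 4.28 to 7.79.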

How the data were processed

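The authors' table held 1 normalised signal per probe and line. The values showed that the deposited signal was each line's whole gene counts multiplied by 1 factor (within 0.006), while 6 positive and 8 negative control probes were unscaled. In wild-type line 7, 4 genes with IL2RA among them stand at a floor of 1.00 and were taken as 1 count. The scaling method is not given in the sources used here; R 4.1.1 is named in the submitters' processing notes.

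Here log2(signal + 1) was fitted with limma 3.58.1 in R 4.3.3 (lmFit, eBayes with trend, no covariates) over genes with a mean of 20 or more, with Benjamini-Hochberg adjustment over all of them at 0.05; fold changes on this scale understate those of low genes. Background limits were multiplied by the factors. Counts recovered by division were tested with edgeR 4.0.16 (quasi-likelihood) as an alternative. The fit was tested on simulated data. Promoter windows came from RefSeq.

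Members, role and pathway lists were chosen with earlier results of these data known, and receptor complexes and promoter windows after the values were seen. Members above background in all lines are given by line with their test, and others by range or detection. IL1F10 was counted as a ligand though the list held it as IL38.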

Additional observations from a re-analysis of the deposited data

How the results depend on the processing

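Alternatives were scaling on 9 reference genes without TBP, on sample medians or on positive controls, cyclic loess, other filters (none, a mean of 50, the background limit), edgeR, a pseudocount of 10, limma without its trend, and leaving out each line. No paired analysis was possible because the genotypes have just line number 1 in common. Over all genes the 42 calls became 69 with cyclic loess, 4 without the trend and 77 without knockout line 1. Of 14 alternatives, 9 called 0 members. IL20RA was the 1 member called with reference genes without TBP, cyclic loess and a filter at 50, and without single lines the number was 0 to 2. The median log2 fold change of the members, -0.29, turned to 0.060 with cyclic loess (ligands to 0.16) and moved to -0.12 with a filter at 50. The number above background in all lines, 11, became 47 (22 ligands, 23 receptor chains, 2 inhibitors) with the mean of the negative controls as the limit, 8 with 3 SD and 10 with the highest negative control.

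Of 149 refits of the 11 members named by line, 138 kept direction and side of the threshold, 4 gained a call and 7 turned sign, none of them a called value. IL6ST turned to 0.049 with reference genes without TBP, and ranged from -0.14 to 0.067 without single lines. IL1F10 turned to 0.12 with cyclic loess. Without single lines IL23A ranged from -0.13 to 0.21 and IL12A from -0.22 to 0.24. The cause of these changes was not tested. The median SE of the tested members was 0.40, and the parts of depth and of spread between lines in it were not separated.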
